A study of Mus musculus with 3 samples.

Results

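The 10 genes described here, Rgs5, Pdgfrb, Cspg4, Mcam, Kcnj8, Acta2, Tagln, Cnn1, Myh11 and Des, are used in the field as markers of pericytes and smooth muscle cells. They were taken by name from the array annotation with every probe set assigned to them, a probe set being the group of short probes that reads 1 transcript, which gave 19 probe sets and 10 of the 18194 named genes on the array. They were measured in 3 primary cultures of mouse ocular pigment epithelium, with 1 array per culture: retinal (RPE), ciliary body (CBPE) and iris (IPE) pigment epithelium. All 3 came from C57BL/6 mice of 6 to 8 weeks, and every culture was kept in medium without serum overnight before RNA was taken. RPE was grown in DMEM with 20% fetal bovine serum, whereas CBPE and IPE were grown in RPMI 1640 with 10%, so where RPE is set against CBPE or IPE, the tissue and its medium cannot be told apart. RPE came from trypsin-treated posterior eyecups, and CBPE and IPE from dissected tissue treated with Dispase and DNase I. The labels state that more than 95% of RPE and CBPE cells after 14 days, and more than 99% of IPE cells, were cytokeratin positive. No culture was replicated, so each value is a single measurement, no test between cultures could be made and no p-value is given.

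Pericytes wrap capillaries and small venules, and smooth muscle cells form the contractile coat of larger vessels. Both are called mural cells. Endothelial PDGF-B recruits them through the receptor PDGFRβ, and the contractile genes are switched on by serum response factor (SRF) with its partner myocardin, through CArG boxes in their promoters. In the eye, pericytes cover retinal and choroidal vessels, the ciliary body holds a smooth muscle, and the sphincter and dilator muscles of the iris arise from the same optic cup neuroepithelium as the iris pigment layer. Cultured epithelial cells and fibroblasts can also switch on Acta2 and Tagln, so neither gene marks mural cells alone.

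The promoter windows of Rgs5, Acta2, Cnn1 and Des are shown because these 4 genes carry the contrasts described below: Rgs5 the largest difference between cultures among the 10, Acta2 and Cnn1 a higher signal in CBPE than in IPE, and Des the opposite order. Windows of 7 of the 10 genes were searched, without Tagln, Myh11 and Pdgfrb. The sequences shown run from 250 bases before to 50 bases after the gene's annotated start and are RefSeq sequence of build GRCm38.p6. They lie at chr1:169655251-169655550 on the plus strand, chr19:34255324-34255623 on the minus strand, chr9:22099003-22099302 on the plus strand and chr1:75360042-75360341 on the plus strand. Capitals mark CArG-like boxes, the SRF motif with 1 C or G among its 6 inner bases.
Rgs5: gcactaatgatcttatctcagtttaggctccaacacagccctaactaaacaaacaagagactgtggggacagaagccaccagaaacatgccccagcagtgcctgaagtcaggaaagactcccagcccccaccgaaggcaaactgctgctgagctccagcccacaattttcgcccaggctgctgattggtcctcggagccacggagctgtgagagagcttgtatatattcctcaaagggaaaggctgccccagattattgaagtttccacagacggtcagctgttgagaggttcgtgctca
Acta2: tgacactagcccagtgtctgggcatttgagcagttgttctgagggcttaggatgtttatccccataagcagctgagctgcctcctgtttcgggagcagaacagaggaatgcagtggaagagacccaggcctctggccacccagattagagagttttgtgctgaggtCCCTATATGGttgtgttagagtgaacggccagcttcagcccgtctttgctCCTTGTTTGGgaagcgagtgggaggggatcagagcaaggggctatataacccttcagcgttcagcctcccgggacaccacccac
Cnn1: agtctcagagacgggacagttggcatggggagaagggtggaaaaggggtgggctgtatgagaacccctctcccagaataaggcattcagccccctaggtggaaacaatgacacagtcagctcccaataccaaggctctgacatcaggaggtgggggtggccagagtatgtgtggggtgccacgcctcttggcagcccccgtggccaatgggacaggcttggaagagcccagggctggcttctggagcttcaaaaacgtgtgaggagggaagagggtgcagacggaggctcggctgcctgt
Des: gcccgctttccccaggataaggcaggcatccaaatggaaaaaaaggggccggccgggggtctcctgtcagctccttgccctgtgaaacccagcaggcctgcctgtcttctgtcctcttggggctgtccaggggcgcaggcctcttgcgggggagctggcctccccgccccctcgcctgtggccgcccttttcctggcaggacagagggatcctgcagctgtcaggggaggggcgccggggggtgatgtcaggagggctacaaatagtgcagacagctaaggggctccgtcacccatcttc
The Acta2 window holds 2 CArG-like boxes, CCCTATATGG at positions -84 to -75 and CCTTGTTTGG at positions -34 to -25. Position 0 is the annotated start of the gene, which may differ from the first transcribed base. It also holds the letters of an MCAT element, CATTCC, on the opposite strand at positions -146 to -141, apart from both boxes. None of the 7 windows, which also include Kcnj8, Mcam and Cspg4, holds a full CArG box, and the other 6 hold no CArG-like box. The Notch mediator motif GTGGGAA was found in none of the 7. Over all 32817 promoter windows, searched on both strands, 1.63% hold a full CArG box, 8.50% a CArG-like box, 14.7% CATTCC and 6.39% GTGGGAA. These matches describe the letters in the window and are not evidence of binding.

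On each array, a signal was taken as measured only above a floor, 16.8 for RPE, 20.2 for CBPE and 14.5 for IPE. Signals are linear intensities as deposited, and their trimmed mean is the same on every array. A difference is counted where 2 signals differ at least 2-fold with at least 1 above the floor, and where the dim array is at its floor the fold is given as at least the bright signal over that floor. The only error available is the disagreement between bright probe sets of 1 gene, whose log2 differences had a pooled SD of 0.29 in RPE over CBPE (1694 genes), 0.46 in RPE over IPE (1774 genes) and 0.50 in CBPE over IPE (1667 genes). Variation among cultures or animals is not part of it. Probes differ in brightness, so a signal or its rank says how bright a probe set was on an array and not how abundant a transcript was, and sums over genes are compared only between cultures. Genes other than the 10 are given by their representing probe set. In bulk RNA, fewer cells of a type and less RNA per cell cannot be told apart.

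Rgs5, which encodes a GTPase-activating protein that shortens signalling by G protein-coupled receptors and is a widely used pericyte marker, was bright in RPE and CBPE and under the floor in IPE. Its brightest probe set, which represents the gene, gave a signal of 1415.9 in RPE, 3973.5 in CBPE and 10.4 in IPE. The other 3 gave 543.9, 193.1 and 39.9 in RPE, 3020.3, 656.8 and 136.3 in CBPE, and 2.7, 1.5 and 1.1 in IPE. All 4 were under the floor in IPE, above it in the other cultures, and highest in CBPE. By the representing probe set, RPE was at least 97.6-fold and CBPE at least 274-fold above IPE, and by the dimmest probe set at least 2.75-fold and at least 9.40-fold. RPE was 2.81-fold lower than CBPE by the representing probe set, a log2 difference of -1.49, and 3.40-fold to 5.55-fold lower by the others. The 5.55-fold and 3.40-fold values came from probe sets with _x_ and _s_ in their names, which mark probes that may match other transcripts. The remaining one, without such a suffix, gave 3.42-fold. The representing probe set ranked 1185 in RPE and 432 in CBPE among the 45037 non-control probe sets, the brightest being 1. It has no rank in IPE, where it was under the floor.

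Cspg4, which encodes the NG2 proteoglycan found on pericytes and on some other precursor cells, followed the same order. Its representing probe set gave 46.6 in RPE, 119.5 in CBPE and 6.2 in IPE, and the other gave 27.4, 32.1 and 11.1. Both were under the floor in IPE alone. RPE was at least 3.21-fold and CBPE at least 8.24-fold above IPE by the first probe set, and at least 1.89-fold and at least 2.21-fold by the second. RPE was 2.56-fold lower than CBPE by the first probe set but 1.17-fold lower by the second, so the size of that difference depends on the probe set.

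Mcam, which encodes the adhesion molecule CD146 of pericytes and endothelial cells, had a CBPE maximum without an IPE minimum. Its single probe set gave 103.5 in RPE, 321.2 in CBPE and 116.9 in IPE. RPE was 3.10-fold lower than CBPE, and CBPE was 2.75-fold higher than IPE, log2 differences of -1.63 and 1.46 that exceed the SDs between probe sets. RPE and IPE differed by -0.18, which is within that SD and turned to 0.10 after quantile normalization. Kcnj8, which encodes the pore subunit Kir6.1 of vascular ATP-sensitive potassium channels, exceeded the floor only in CBPE, with a signal of 1.7 in RPE, 27.3 in CBPE and 4.6 in IPE. With that CBPE signal close to the floor of 20.2, the folds are at least 1.62 over RPE and at least 1.88 over IPE, both under the 2-fold limit.

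Pdgfrb, which encodes the receptor through which PDGF-B recruits mural cells and which fibroblasts also carry, was well above the floor in all 3 cultures, including the one without measurable Rgs5. The representing probe set gave 1255.9 in RPE, 1589.3 in CBPE and 1129.1 in IPE, all within 2-fold. The other gave 323.9, 605.6 and 625.2, also within 2-fold. The probe sets disagreed about IPE: RPE minus IPE was 0.15 by the first (-0.059 with equal medians of the arrays and -0.069 after quantile normalization) and -0.95 by the second, and CBPE minus IPE was 0.49 and -0.046. Both placed RPE below CBPE, by -0.34 and -0.90 on the log2 scale. The order of IPE and the other cultures is therefore not settled for Pdgfrb.

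**Figure D1:**
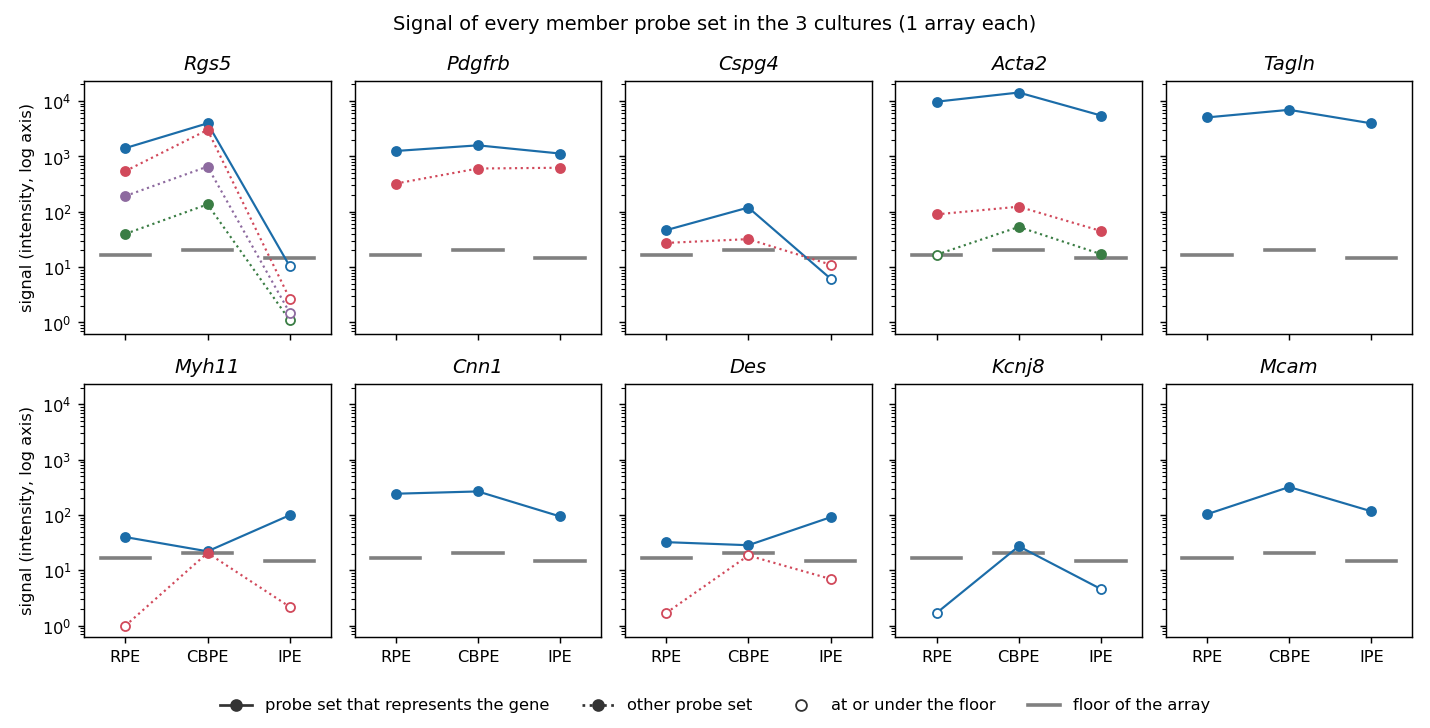
Signal of all 19 probe sets (intensity, log axis) in RPE, CBPE and IPE, 1 array each, with 1 panel per gene; solid lines join the probe set that represents the gene, dotted lines the others, open circles are at or under the floor, and grey bars are the floors of 16.8, 20.2 and 14.5. All 4 Rgs5 and both Cspg4 probe sets drop under the floor in IPE, whereas the representing probe sets of Myh11 and Des are highest there, at 99.4 and 91.3.

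Acta2, which encodes smooth muscle α-actin, was bright in every culture. Its representing probe set gave 9768.7 in RPE, 14299.6 in CBPE and 5496.4 in IPE. CBPE was 2.60-fold higher than IPE (log2 1.38), RPE 1.78-fold higher than IPE (0.83), and RPE 1.46-fold lower than CBPE (-0.55). This probe set ranked 39 in RPE, 7 in CBPE and 44 in IPE, and after quantile normalization, which compares such ranks, CBPE minus IPE was 0.29 and RPE minus IPE 0.027. The suffix of its name (_s_) marks probes that can match several transcripts, and actins are near-identical in sequence, so part of the signal may belong to another actin. A second probe set without that suffix gave 89.9, 123.8 and 45.0, with CBPE 2.75-fold higher than IPE, and another gave 16.8, 53.3 and 17.2, the first of these at the floor. All 3 were highest in CBPE.

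Tagln, which encodes the actin-binding protein transgelin, was also bright, at 5077.7 in RPE, 6961.2 in CBPE and 3966.8 in IPE by its single probe set. All 3 pairs were within 2-fold, with CBPE minus IPE at 0.81, RPE minus IPE at 0.36 and RPE minus CBPE at -0.46 on the log2 scale. After quantile normalization CBPE minus IPE turned to -0.16 and RPE minus IPE to -0.29, so the order of Tagln against IPE depends on the scaling. Cnn1, which encodes calponin 1, a regulator of smooth muscle contraction, gave 242.9 in RPE, 267.1 in CBPE and 94.4 in IPE. RPE was 2.57-fold and CBPE 2.83-fold higher than IPE, and RPE and CBPE differed by -0.14, which is within the SD between probe sets. Both differences from IPE stayed above 2-fold under every alternative tried, although Cnn1 has 1 probe set, so another choice of probe set could not change them.

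Myh11 and Des, which encode smooth muscle myosin heavy chain and the muscle intermediate filament protein desmin, ran the other way. The representing probe set of Myh11, the contractile gene held to be most restricted to smooth muscle, gave 40.0 in RPE, 22.1 in CBPE and 99.4 in IPE. RPE was 2.48-fold and CBPE more than 4-fold lower than IPE (log2 -1.31 and -2.17), and RPE was 1.81-fold higher than CBPE, whose signal was just above the floor. The other Myh11 probe set gave 1.0, 20.7 and 2.2 and exceeded the floor only in CBPE, whose floor is 20.2, so it did not show that order. Des gave 32.4 in RPE, 28.5 in CBPE and 91.3 in IPE by its representing probe set, and 1.7, 18.6 and 7.0, all under the floors, by the other. By the first, RPE was 2.82-fold and CBPE 3.20-fold lower than IPE, and RPE and CBPE differed by 0.19 on the log2 scale. The higher IPE signal of each of these genes thus rests on 1 probe set. When all probe sets of a gene were averaged, the log2 differences from IPE for Myh11 were -0.55 in RPE and -0.83 in CBPE, and for Des -0.64 and -0.60, under 2-fold.

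Counted over the 10 genes in RPE over CBPE, none was higher by 2-fold or more, against 3.42% of all genes tested, and 3 of 10 (Rgs5, Cspg4 and Mcam) were lower, against 4.38%, or 7.8% of all genes in either direction. Of 9 genes above the floor in RPE or IPE, 3 (Rgs5, Cspg4 and Cnn1) were higher in RPE, against 9.86% of all genes, and 2 (Myh11 and Des) lower, against 10.5%, or 20.3% in either direction. Of 10 genes in CBPE over IPE, 5 (Rgs5, Cspg4, Mcam, Acta2 and Cnn1) were higher in CBPE, against 12.2% of all genes, and 2 (Myh11 and Des) lower, against 12.5%, or 24.7% in either direction. With equal medians the split over all genes was 6.28% higher and 15.4% lower in RPE over IPE, and 7.59% and 18.5% in CBPE over IPE, where quantile normalization gave 13.7% and 9.24%. The median log2 differences were -0.50, 0.36 and 1.15 in these comparisons, against 0.0036, 0.0054 and -0.00048 over all genes. Of the 10 genes, 9 were above the floor in RPE, 10 in CBPE and 7 in IPE, and of their 19 probe sets 15, 18 and 10. Of all 18194 genes, 11649, 11357 and 11480 were above it. By the representing probe set, CBPE was highest for 8 genes, IPE for 2 and RPE for none, and this was not counted over all genes. The comparisons share arrays, RPE over IPE and CBPE over IPE both resting on the single IPE array, and the genes were chosen with earlier results of these data known, so these counts describe the 10 genes and nothing more.

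**Figure D2:**
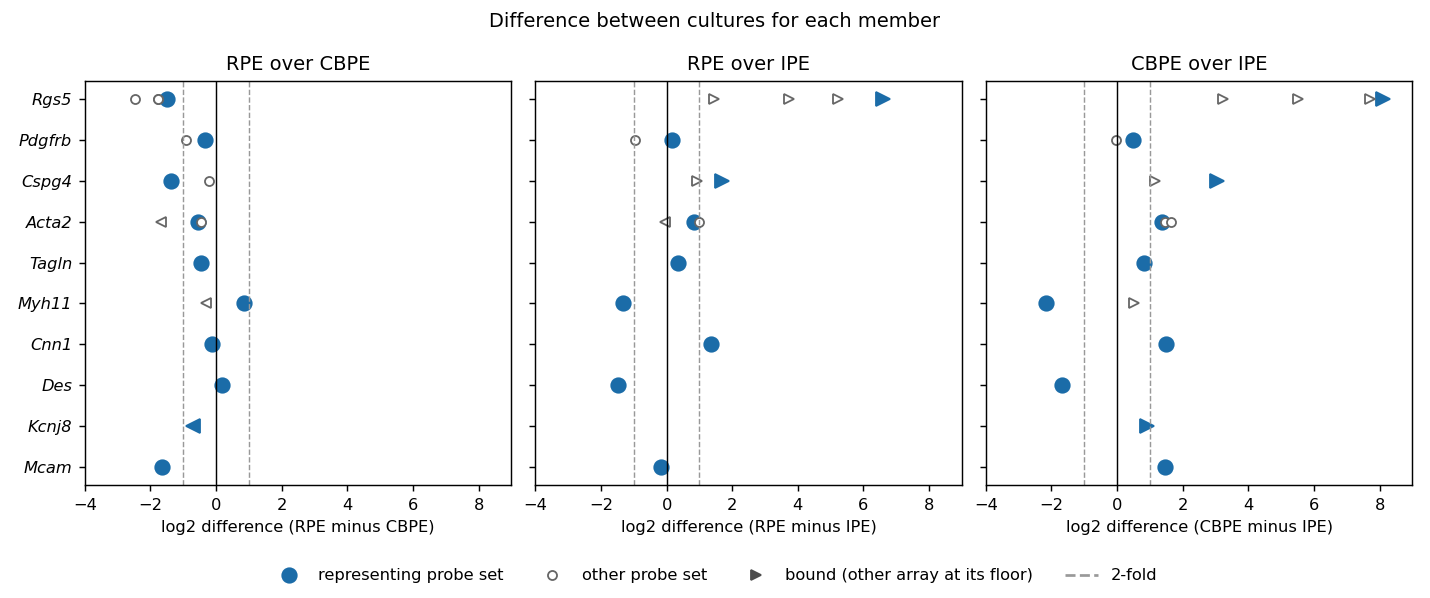
Log2 difference of each of the 10 genes in RPE over CBPE, RPE over IPE and CBPE over IPE (1 array per culture); filled blue symbols are representing probe sets, open grey symbols the others, triangles are bounds where 1 array was at its floor, and dashed lines mark 2-fold. Rgs5 lies at 6.61 and 8.10 as bounds against IPE, while Myh11 and Des lie at -1.31 and -1.49 in RPE and at -2.17 and -1.68 in CBPE.

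Other genes of mural cells varied in their order. The counts of this list and of those below are to be read beside the shares of all genes at least 2-fold higher and lower. These were 3.42% and 4.38% in RPE over CBPE, 9.86% and 10.5% in RPE over IPE, and 12.2% and 12.5% in CBPE over IPE. Of 17 further mural genes, 14 were above the floor in RPE or CBPE, and 1 was at least 2-fold higher and 4 lower in RPE. Of 14 in RPE over IPE, 4 were higher and 3 lower, and of 13 in CBPE over IPE, 5 were higher and none lower. The medians were -0.75, 0.097 and 0.27, and the second turned to -0.12 with equal medians of the arrays. Abcc9, which encodes the regulatory partner of Kir6.1, was under the floor on every array, as were Higd1b and Gja4. Tbx18, a transcription factor of mural cells and their precursors, gave 71.4 in RPE, 119.2 in CBPE and 17.6 in IPE, so that RPE was 4.06-fold and CBPE 6.77-fold higher than IPE, whose signal was close to the floor. Foxf2, a transcription factor needed for brain pericytes in mice, gave 145.5, 358.9 and 55.6, with RPE 2.62-fold and CBPE 6.46-fold higher than IPE. Ndufa4l2, a mitochondrial protein gene induced by hypoxia, gave 83.9 in RPE, against 648.7 in CBPE and 581.4 in IPE. Gucy1a1, which encodes a subunit of the nitric oxide receptor soluble guanylate cyclase, was under the floor in RPE at 16.2, against 90.6 in CBPE and 85.2 in IPE. S1pr3, a sphingosine 1-phosphate receptor gene, was highest in RPE, at 488.8 against 242.1 in CBPE and 210.3 in IPE.

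The wider set of contractile and cytoskeletal genes was mostly above the floor, with 21 of 22 genes in RPE, 21 in CBPE and 18 in IPE. Of 22 such genes analysed, 22 were above the floor in RPE or CBPE, and none was at least 2-fold higher and 2 lower in RPE. Of 21 in RPE over IPE, 3 were higher and 3 lower, 14.3% each against 9.86% and 10.5% of all genes. Of 21 in CBPE over IPE, 4 were higher and 2 lower, 19.0% and 9.52% against 12.2% and 12.5%. These counts lie near the shares of all genes. The medians were -0.60, -0.17 and 0.57, and the third turned to -0.062 after quantile normalization. Actg2, which encodes smooth muscle γ-actin, gave 816.5 in RPE, 2209.2 in CBPE and 162.2 in IPE, with RPE 5.03-fold and CBPE 13.6-fold above IPE. The tropomyosin gene Tpm2 gave 5443.6, 8128.6 and 2279.3, and its 4 probe sets all had IPE lowest. Tpm1, at 4647.6, 6469.3 and 4248.2, was within 2-fold between all pairs, and its order against IPE turned after quantile normalization, and for RPE also with equal medians. Ppp1r14a, an inhibitor of myosin phosphatase, gave 26.7, 42.4 and 12.1, under the floor in IPE, with folds of at least 1.84 for RPE and at least 2.92 for CBPE. Itga8, an integrin subunit of contractile cells, had the order of Myh11 and Des: it gave 117.0 in RPE, 63.1 in CBPE and 716.3 in IPE, and was 6.12-fold and 11.4-fold lower in RPE and in CBPE than in IPE, with both of its probe sets highest in IPE.

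Among regulators of the contractile genes, Myocd, which encodes myocardin, was under the floor on every array, at 9.6 in RPE, 2.2 in CBPE and 9.8 in IPE. Srf gave 126.4 in RPE, 199.4 in CBPE and 313.1 in IPE, and RPE was 2.48-fold lower than IPE by the representing probe set. Csrp2, a LIM-domain cofactor of SRF, gave 1264.9, 1692.8 and 323.0, so that RPE was 3.92-fold and CBPE 5.24-fold higher than IPE. Prrx1, a mesenchymal homeobox gene, was 2.36-fold higher in RPE than in IPE, at 1701.7 against 720.5, with CBPE at 1279.9, and 1 of its 5 measured probe sets ran the other way in RPE over IPE. Klf4, which encodes a repressor of contractile genes, gave 215.3, 255.8 and 109.2. Of the 10 regulators, 9 were measured in RPE over CBPE with none past 2-fold in either direction (median -0.061). In RPE over IPE, 3 of 9 were higher and 1 lower (median 0.83), and in CBPE over IPE 2 of 8 were higher and none lower (median 0.52). With equal medians these counts turned to 2 higher and 3 lower in RPE over IPE, and to 1 higher and 2 lower in CBPE over IPE.

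The genes that pair with 2 of the 10 were not uniform either. Pdgfb, the ligand gene of Pdgfrb that endothelial cells express, gave 21.4 in RPE, 128.8 in CBPE and 13.3 in IPE, so that RPE was 6.02-fold lower than CBPE and CBPE at least 8.88-fold higher than IPE. Pdgfra, the sister receptor of fibroblasts, gave 958.1, 776.6 and 2020.3, and was 2.11-fold and 2.60-fold lower in RPE and in CBPE than in IPE, with all 3 probe sets lower in both. Pdgfc gave 358.0, 266.5 and 189.2, within 2-fold between all pairs. Over the 6 PDGF ligands and receptors, Pdgfrb included, in RPE over CBPE 1 was lower by 2-fold or more and none higher, in RPE over IPE 1 was lower and none higher, and in CBPE over IPE 1 was higher and 1 lower. The medians were -0.018, 0.27 and 0.21, and the first turned positive under both other scalings and the third negative with equal medians.

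Within the R4 subfamily of RGS proteins, to which Rgs5 belongs, the members differed in order. Rgs4 gave 46.1 in RPE, 86.8 in CBPE and 6.3 in IPE, so that RPE exceeded IPE at least 3.18-fold and CBPE did so at least 5.99-fold. Rgs3 gave 512.3, 647.7 and 131.2, 3.90-fold and 4.94-fold higher than in IPE, although 1 of its 3 measured probe sets was lower in CBPE than in IPE. Rgs2 ran the other way, at 119.4, 43.4 and 397.6, 3.33-fold and 9.16-fold lower in RPE and in CBPE than in IPE, with all 4 probe sets lower in both. Rgs8, Rgs13 and Rgs18 were under the floor on every array. Of 5 measured in RPE over IPE, 3 were higher and 1 lower (median 1.67), of 6 in CBPE over IPE, 3 were higher and 1 lower (median 1.60), and of 6 in RPE over CBPE, 1 was higher and 2 lower (median -0.80), Rgs5 being counted in each.

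**Figure D3:**
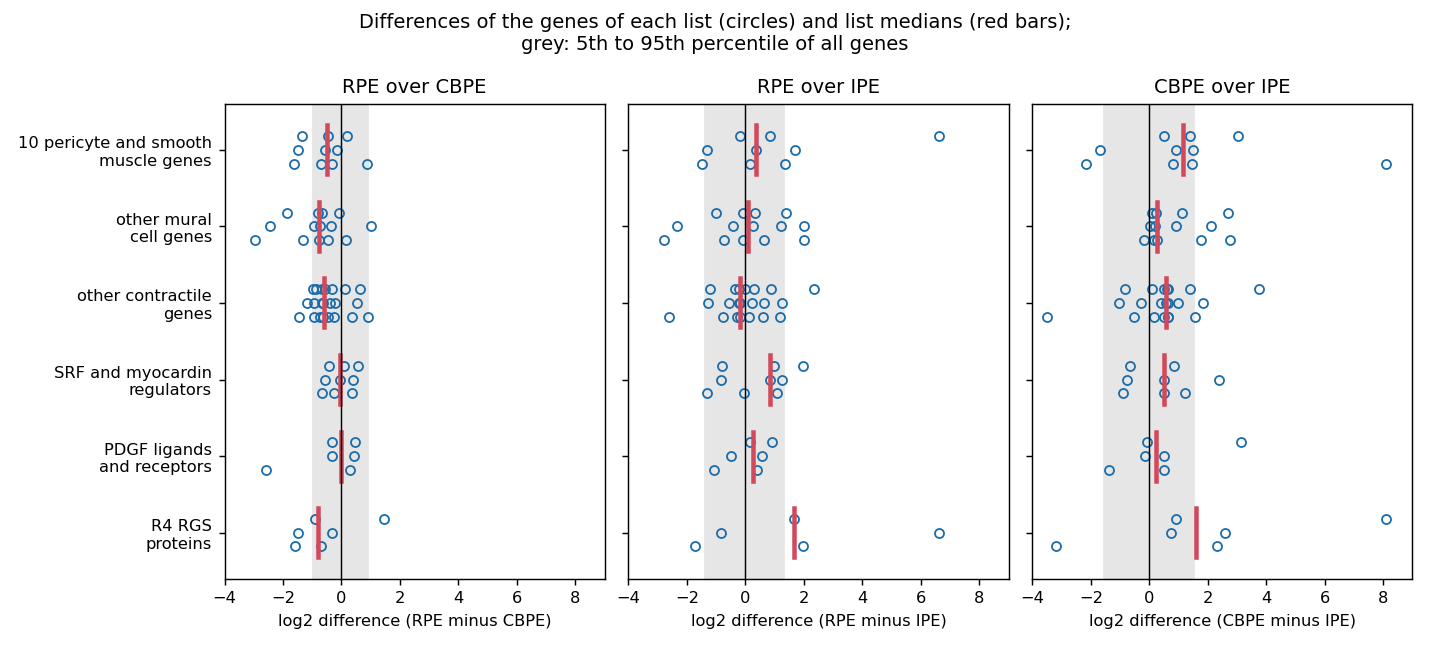
Log2 differences of single genes (circles, bounds included) in the 10 genes and 5 related lists, with list medians as red bars and the 5th to 95th percentile of all genes in grey, for RPE over CBPE, RPE over IPE and CBPE over IPE. The circles of most lists lie on both sides of 0, with Rgs5 farthest right against IPE in both the top and the bottom row.

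Receptors and channels of the iris and ciliary muscles were mostly at or near the floor. Of 14 such genes, 8 were analysed here. The muscarinic receptor gene Chrm3, which mediates constriction by the iris sphincter, gave 1.1 in RPE, 4.0 in CBPE and 5.9 in IPE, and Adra1b, Tacr1 and Kcnmb1 were likewise under the floor on every array. Ptgfr, the prostaglandin F receptor gene, gave 445.7 in RPE, 307.2 in CBPE and 34.5 in IPE, with RPE 12.9-fold and CBPE 8.90-fold above IPE. Cacna1c, the L-type calcium channel gene of smooth muscle, gave 46.9, 113.3 and 31.6, and Kcnma1, a potassium channel gene, 37.1, 65.4 and 4.0. Ednrb, an endothelin receptor gene, gave 7.5 in RPE, 13.0 in CBPE and 33.6 in IPE. Its 3 probe sets disagreed on the order of IPE against RPE and against CBPE. Of 3 measured in RPE over CBPE 1 was lower, of 4 in RPE over IPE 2 were higher and 1 lower, and of 4 in CBPE over IPE 3 were higher. The lower one in RPE over IPE was Ednrb, as a bound of exactly 2-fold. Of the ATP-sensitive potassium channel genes, Kcnj11 was within 2-fold across the cultures, at 333.7, 383.7 and 324.4, and Abcc8 gave 9.9 in RPE, 10.2 in CBPE and 21.7 in IPE, above the floor only in the last.

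Markers of other cell types differed between the cultures too, not all in the same order. Of 13 endothelial markers, 5 were above the floor in RPE, 11 in CBPE and 6 in IPE, and their summed signals were 639, 2062 and 1297. Much of these sums came from Emcn, at 211.2, 1114.8 and 745.1, and Eng, at 240.6, 293.2 and 362.3. Cdh5 was at 16.0 in RPE, 108.3 in CBPE and 7.8 in IPE, and Cldn5 at 2.3, 79.1 and 11.6. Pecam1 was at 2.4, 54.6 and 14.2, and all 3 exceeded the floor only in CBPE. In RPE over CBPE 7 of 11 measured endothelial markers were at least 2-fold lower and none higher, beside the lower Rgs5, Cspg4 and Mcam, and in CBPE over IPE 7 of 12 were higher and none lower. In RPE over IPE, beside the higher Rgs5, 1 of 7 was higher and 1 lower. The higher one was Tek, at 52.1 in RPE against 9.6 in IPE, under the floor there, and the lower one Emcn. Kdr, Eng and Egfl7 were above the floor in both cultures, and Cdh5, Cldn5 and Pecam1 in neither. Of 11 leukocyte markers, 8 were above the floor in RPE, 9 in CBPE and 5 in IPE, with sums of 550, 2409 and 369.7, and Ptprc was under the floor on all 3 arrays. Their counts followed those of the endothelial markers: in RPE over CBPE 7 of 9 were at least 2-fold lower and none higher. In CBPE over IPE 7 of 9 were higher and none lower, and in RPE over IPE 2 of 8 were higher and none lower. Fibroblast markers were bright throughout: 11 of 11 were above the floor in RPE and in CBPE and 9 of 11 in IPE, with sums of 38508, 48149 and 27364. In RPE over CBPE 2 of 11 were higher and 1 lower. In RPE over IPE 4 of 11 were higher and 2 lower, and in CBPE over IPE 5 of 11 were higher and 1 lower. The medians of the fibroblast markers were -0.28, 0.70 and 0.72 in these comparisons, and -0.018, 0.090 and 0.28 after quantile normalization. Skeletal muscle markers, Des among them, were above the floor for 12 of 17 in RPE, 8 in CBPE and 3 in IPE, with sums of 1748, 1712 and 213.7. Myh2, at 808.8, 1362.8 and 32.8, made up much of the first and second sums, and in RPE over CBPE 4 of 13 markers were higher and 1 lower. The 4 higher ones were Mylpf, Myl1, Tnnc2 and Acta1, with log2 differences of 3.36, 3.22, 2.15 and 1.18, those of Mylpf and Tnnc2 being bounds. In RPE over IPE 6 of 12 were higher and 1 lower, and in CBPE over IPE 6 of 8 were higher and 1 lower, Des being the lower one in both. With equal medians 3 of 8 were higher in CBPE over IPE. Of the defining genes, Ckm, Myog and Myod1 were under the floor everywhere. The part of any of these markers in the differences of the 10 genes was not tested.

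The labelled epithelium was checked in the same way. Of 14 pigment epithelium markers, 8 were above the floor in RPE, 6 in CBPE and 9 in IPE, with sums of 1735, 705.3 and 5765. Tyr was above the floor in all 3, at 493.3, 384.4 and 1113.6, while Rpe65, Lrat and Rgr, genes of the retinal visual cycle, were under the floor in all 3, RPE included. Rlbp1, another visual cycle gene on the list, was above the floor in RPE and IPE and under it in CBPE. Its log2 difference in RPE over IPE was -2.28. Dct and Pax6, at 2.0 and 19.4, and Pmel were, like Rlbp1, under the floor in CBPE alone, whereas Best1 and Ttr were above it in CBPE alone. In RPE over IPE 9 of 9 measured pigment epithelium markers were at least 2-fold lower. In CBPE over IPE 9 of 11 were lower and 1 higher, and in RPE over CBPE 3 of 10 were higher and 1 lower. Of 9 keratin genes, 4 were above the floor in RPE, 4 in CBPE and 3 in IPE, with sums of 308.7, 589.3 and 236.2. Krt18 gave 218.6, 422.4 and 144.1, and Krt8 gave 26.2, 95.3 and 17.4, close to the floor in IPE. Of 6 melanocyte and Schwann cell markers analysed, 3 were above the floor in RPE, 4 in CBPE and 5 in IPE. In RPE over CBPE 1 of 4 was higher and 2 lower, in RPE over IPE none of 5 was higher and 2 lower, and in CBPE over IPE 2 of 6 were higher and 1 lower. Mlana gave 88.7, 31.4 and 314.9, whereas Kit gave 0.7, 36.6 and 12.8 and Mbp 22.4, 57.9 and 22.4. Of 8 cardiac markers Actc1 alone was above the floor on all 3 arrays, at 55.9, 32.3 and 19.1.

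**Figure D4:**
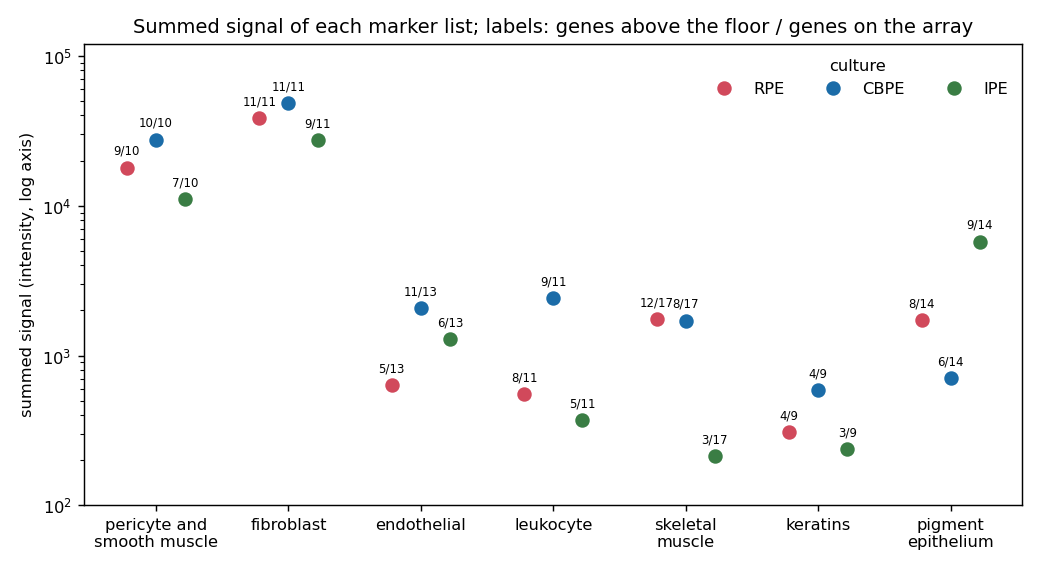
Summed signal (intensity, log axis) of the genes of each marker list in RPE, CBPE and IPE, 1 array each, with the number of genes above the floor over the number analysed beside each point. The sum for the 10 pericyte and smooth muscle genes was 17985 in RPE, 27609 in CBPE and 11016 in IPE, most of it from Acta2 and Tagln.

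With 3 arrays, many genes share a pattern. For the 5 genes above the floor on all arrays with at least a 2-fold span, likeness was measured as the Euclidean distance between log2 signals after each gene's mean was subtracted, over 3184 candidate genes. Nearest to Acta2 were Dynll1, Rexo2, Fibin, Psma2 and Loxl1, with distances of 0.0095 to 0.029, and 224 genes lay within 0.25. Nearest to Cnn1 were Stx8, Sorcs2, Tatdn2, Mettl1 and Gpr85 (0.025 to 0.040), with 228 genes within 0.25. Nearest to Mcam were Zfp324, Tcim, Zfp469, H2-K1 and Prelp (0.039 to 0.086), with 22 genes within 0.25. Myh11 lay nearest to Pkn2, Ranbp2, Reln, Senp6 and Sirt1 (0.013 to 0.088), and Des to Scg5, Zc3h12c, Gphn, Fyttd1 and Abat (0.0071 to 0.052), with 57 and 121 genes within 0.25. Rgs5, Cspg4 and Kcnj8 were not placed, because a signal at the floor has no order.

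Controls of the arrays differed as well. The geometric mean of 12 hybridisation controls was 1941 in RPE, 3192 in CBPE and 1239 in IPE. By representing probe sets, that is also the order of Rgs5, Cspg4, Acta2 and Cnn1, with RPE and CBPE close for Cnn1. Pdgfrb and Tagln had it too before other scalings turned it, but the other Pdgfrb probe set was highest in IPE. Mcam, Myh11 and Des had other orders, and Kcnj8 was above the floor only in CBPE. The 18S 5′ control gave 27.7, 274.3 and 17.6. Signal at the 3′ end over the 5′ end was 2.25, 2.26 and 1.50 for the Actb control and 1.25, 1.23 and 0.940 for Gapdh. The part of these in the differences was not tested. The brightest signal was 13849 in RPE, 19334 in CBPE and 8441 in IPE, while the 75th percentile was 82.9, 76.3 and 100.1. Beside these, the lead of Acta2 over IPE shrank and that of Tagln turned after quantile normalization, whereas Rgs5 in CBPE over IPE remained a bound, at a log2 difference of 7.66.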

How the data were processed

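Biotin-labelled RNA of 3 primary cultures was hybridised to 1 Affymetrix-type array each, per the labels' protocols. The authors deposited linear intensity values, 1 for each array and probe set (45101 probe sets, 64 of them controls). The software behind these values and the genome build were not given in the sources used here. Without the outer 2%, deposited signals averaged 100.001 on every array, and no further scaling was applied. The precision is limited by the number of arrays, 1 per culture.

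Genes were named from a 2016 platform annotation, with symbols checked by gene ID against the RefSeq table of GRCm38.p6: 34958 probe sets named a single gene, and 932 with several or none were not used. The floor of an array was the higher of the median non-control signal and the brightest of 27 probe sets for bacterial transcripts. Signals under it were set to it before log2. Where a gene had several probe sets, the one brightest on average (mean of log2 over the 3 arrays) stood for it. No difference was computed where both arrays were at the floor, or where the dim array's floor exceeded the bright signal. No test was possible. The calculation was tested on simulated data.

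The 10 members and all gene lists were chosen with earlier results of these data known. Every member is named, and from each list of related genes the 4 genes with the largest difference and the 2 brightest. This rule was not used for the marker lists of cell types, which are given as counts with genes named from some of them. Pecam1, Ckm, Myog, Myod1, Ptprc, Rpe65, Lrat, Rgr, Myocd, Chrm3 and the other genes named as under the floor were chosen after their values were seen, and so were the marker genes described by name. The alternatives changed the floor, the scaling and the choice of probe set. Calculations used Python 3.11.15, numpy 2.4.6, pandas 2.3.3 and matplotlib 3.10.9.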

Additional observations from a re-analysis of the deposited data

How the results depend on the processing

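The alternatives were a floor at the median non-control signal alone, at the 60th percentile or at a fixed signal of 100, scaling to equal medians or by quantile normalization, and a gene represented by the mean of its probe sets, by the brightest probe set without _x_ or _s_ in its name, or by the probe set with the highest signal on any array. Of 15 differences of at least 2-fold among the 10 genes, 15 kept their direction under each of the 8 alternatives that gave a value, and 7 stayed at least 2-fold under all of these: those of Rgs5 in 3 comparisons, of Mcam and Cnn1 in 2 each. Mcam and Cnn1 have 1 probe set each, so the alternatives in the choice of probe set could not change their values. The floor at the median alone and the probe set with the highest signal on any array left all 15 values as they were. Leaving out _x_ and _s_ probe sets changed only that of Acta2. These alternatives therefore add little to the counts of differences that held. The number of genes at least 2-fold lower was 0 with the fixed floor of 100 and 0 when probe sets were averaged, in RPE over IPE and in CBPE over IPE alike, against 2 in each as reported. At the floor of 100 no signal of Myh11 or Des could be measured. The median log2 difference of the 10 genes in CBPE over IPE was 0.55 after quantile normalization, against 1.15. Acta2 was at 0.29 there in CBPE over IPE, and the cause was not tested. Cspg4 was at 0.66 in RPE over IPE with the floor at the 60th percentile, and Rgs5 at 3.82 with the floor of 100, since a higher floor lowers a bound. Equal medians moved the median of all genes to -0.20 in RPE over IPE and -0.24 in CBPE over IPE, and quantile normalization moved it to 0.15 in CBPE over IPE. No paired analysis was possible because each culture had 1 array.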
